A study of Caenorhabditis elegans with 4 samples.

Results

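Chromosome V carried 1944 of the 11476 MRE-11 peaks in the list for the whole series, and 612 of them (31.5%, 95% Wilson interval 29.5% to 33.6%) were also found in both ChIP replicates. The members are all whole-series peaks listed on V. A peak is called reproducible where a peak of replicate 1 and a peak of replicate 2 each overlap it by at least 1 bp. The replicate lists had 655 and 921 peaks on V, of 4212 and 5799 peaks in all. Over all nuclear chromosomes 36.1% of the whole-series peaks were reproducible. Intervals on shares cover counting error only, and neighbouring peaks are not independent.

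MRE-11 is a nuclease that works with RAD-50. Their complex trims the ends of DNA double-strand breaks and, in the germline of Caenorhabditis elegans, also takes part in making the breaks that start meiotic recombination. V is the largest worm chromosome. Worm autosomes have a gene-dense centre, where crossovers are rare, between arms that are richer in repeats and in crossovers, and the arms of V hold large families of chemoreceptor genes. The right arm of V also holds the tandem repeat of genes for 5S ribosomal RNA, a part of the large ribosomal subunit, and for SL1 RNA, the spliced leader that is joined to the 5′ ends of many worm messenger RNAs.

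Both ChIP libraries came from fem-2(b245) hermaphrodites, young adults that contain a germline, kept at 20 degrees Celsius, and were made with the affinity-purified polyclonal rabbit antibody SDQ3866 against MRE-11. fem-2 acts in male sex determination and in spermatogenesis, and b245 is a temperature-sensitive allele of it; the labels do not say whether these animals had made sperm. Frozen worms were ground whole, so germline and somatic nuclei were mixed, and the growth protocol speaks of gravid animals. The 2 input libraries carry the same genotype and stage and were not analysed here. Replicate numbers are in the titles, and nothing says whether the replicates were separate cultures. Coordinates are WormBase WS220, read depth is unknown, and no peak was tied to a gene. With 1 strain, 1 antibody and a single chromosome V, the design has no groups of samples to test, so the values below are descriptions, set beside chromosomes I to IV and followed through both replicates.

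MRE-11 sites were sparser on V than on chromosomes I to IV in each list. V had 29.2 reproducible peaks per Mb, against 49.4 per Mb over I to IV together, where the chromosomes ran from 41.2 to 62.4. The ratio of V to I to IV was 0.59. With the peaks of replicate 1 alone the densities were 31.3 per Mb on V and 47.3 on I to IV, and with those of replicate 2 alone they were 44.0 and 69.7. The ratio was 0.66 in replicate 1 and 0.63 in replicate 2. Reproducible peaks covered 2.53% of V and 4.14% of I to IV. V had the lowest density of the 5 autosomes in the reproducible set, in the whole-series list and in both replicate lists. The X chromosome, outside this background, had 27.6 reproducible peaks per Mb, with 36.3 in replicate 1 and 33.0 in replicate 2. Of the peaks listed on X 31.9% were reproducible, and gaps over 100 kb between them made up 39.9% of X.

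Fewer of the listed sites on V were reproducible than on the other autosomes. The share was 31.5% on V and 38.1% on I to IV (Wilson interval 37.0% to 39.2%), with 35.1% on II (33.0% to 37.4%) as the lowest of those chromosomes. Replicate 1 alone had a further 314 V peaks (16.2%), replicate 2 alone had 370 (19.0%), and 648 (33.33%) lay in neither. On I to IV, 14.5% were found in replicate 1 alone, 19.7% in replicate 2 alone and 27.7% in neither. Over all nuclear chromosomes 30.0% were found in neither. The unshared V sites were weaker and narrower than the reproducible ones, as on I to IV. The median score on V was 45.6 for the reproducible peaks and 11.01 for those of replicate 1 alone. It was 10.05 for those of replicate 2 alone and 5.82 for those in neither. In the same order, the median widths on V were 597, 337, 289 and 209 bp. On I to IV the median scores in that order were 50.5, 10.11, 11.57 and 5.89, and the widths 623.5, 314, 294 and 211 bp. The score is the authors' own, on a scale the files do not state, and is used here to describe and rank peaks within a list.

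The listed peaks of V had lower scores than those of I to IV, and the reproducible share rose with score on both. Whether the scores account for the lower share on V was not tested. Whole-series peaks were divided into score quintiles over all nuclear chromosomes, and V had 22.9% of its peaks in the lowest quintile and 16.6% in the highest, against 19.7% and 21.5% for I to IV. Within the highest quintile 305 of 323 V peaks (94.4%, 91.4% to 96.4%) and 1626 of 1721 peaks of I to IV (94.5%, 93.3% to 95.5%) were reproducible. In the fourth quintile the shares were 55.8% on V and 55.6% on I to IV. The intervals of V and of I to IV were apart in the middle quintile, where 49 of 388 V peaks (12.6%, 9.69% to 16.3%) and 305 of 1586 (19.2%, 17.4% to 21.2%) were reproducible. In the lowest and second quintiles the shares were 5.16% and 7.76% on V, against 6.04% and 8.53% on I to IV. The replicates also recovered fewer of each other's peaks on V than on I to IV: 491 of 655 replicate 1 peaks on V (74.96%, 71.5% to 78.1%) met a replicate 2 peak, against 82.6% on I to IV (81.2% to 84.0%). In the other direction 564 of 921 replicate 2 peaks on V (61.2%, 58.1% to 64.3%) met a replicate 1 peak, against 65.7% (64.2% to 67.1%), and there the intervals overlapped.

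Along V, with arms of 25% of the length, the sites were densest in the centre and sparsest in the right arm. The arms are the outer 25% at each end, so the left arm ran to base 5231043 and the right arm from base 15693130. The left arm had 135 reproducible peaks (25.8 per Mb), the centre 365 (34.9 per Mb) and the right arm 112 (21.4 per Mb). Replicate 1 had 29.4, 37.1 and 21.6 peaks per Mb in the left arm, centre and right arm, and replicate 2 had 36.5, 53.1 and 33.26. The order centre, left arm, right arm was the same in both replicates.

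**Figure D1:**
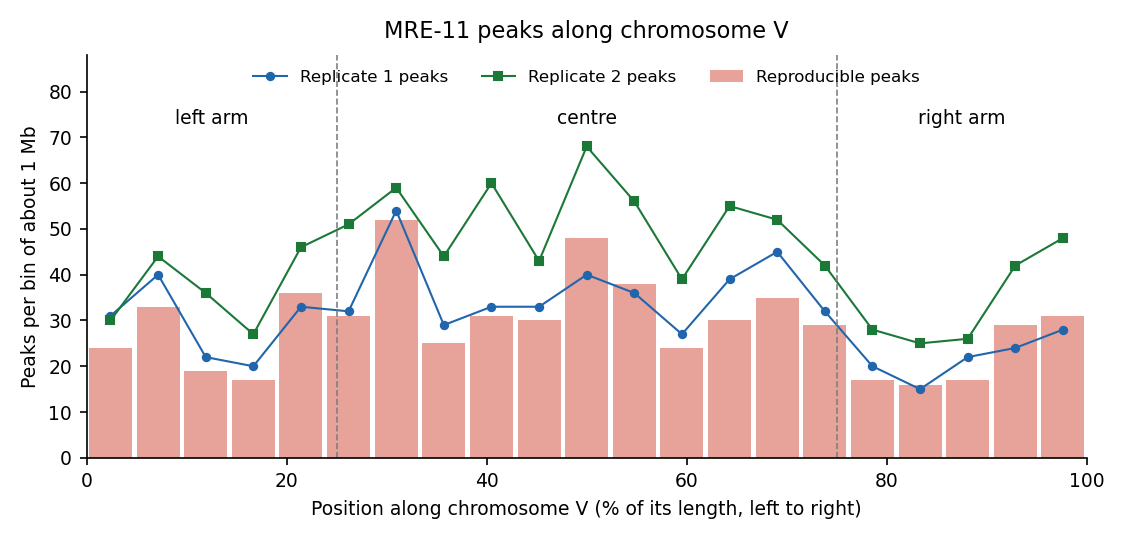
Peaks per bin (21 equal bins of about 1 Mb) against position along chromosome V in percent of its length; bars are reproducible peaks and lines the peaks of each replicate, and dashed lines mark the arms. The bars reach 52 in the centre and fall to 16 and 17 in the first 3 bins that lie wholly in the right arm. In the left arm they fall as low as 17.

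The arms together held 40.4% of the reproducible V peaks (247 of 612, Wilson interval 36.5% to 44.3%), the smallest arm share of the 5 autosomes. The other autosomes ran from 45.7% to 49.8%. The share on V was 40.8% in replicate 1 and 39.6% in replicate 2, again the smallest in each list, against 45.0% as the lowest of I to IV in replicate 1 and 44.3% in replicate 2. Per Mb, the arms of V had 0.68 times the density of its centre, and the same ratio lay between 0.84 and 0.99 on the other autosomes. How low the arm density of V stood depended on the definition of the arms and on the list. With arms of 10% at each end, which are 20% of the length, the arms held 19.8% of the V peaks at 0.99 times the density of the centre, and the lowest ratio was that of I, at 0.77. In replicate 1 the ratio of V was then 0.97 and in replicate 2 it was 0.91. Arms of about 1 part in 3 at each end gave a reproducible-set ratio of 0.86 on V, 0.85 on I and 0.86 on II. V was then lowest in replicate 2, at 0.76 against 0.85 on I, and in the whole-series list, at 0.80 against 0.82 on II. In replicate 1 the ratio was 0.88 on V and 0.81 on II, the lowest there.

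With arms of 25%, the right arm of V was the sparsest of the 10 autosomal arms in the reproducible set, in the whole-series list and in both replicate lists. The left arm of II came next with 23.8 reproducible peaks per Mb and the left arm of V after it. Right arms of I to IV ran from 34.8 to 62.7 per Mb, and those chromosomes together had 46.1 per Mb, so the right arm of V stood at 0.46 of their density. For the centre the ratio of V to I to IV was 0.67, and for the left arm 0.54. The shares of strong sites in the regions of V had overlapping intervals. In the right arm 14 of 112 reproducible peaks (12.5%, Wilson interval 7.59% to 19.9%) were in the highest-scoring 20% of reproducible nuclear peaks, against 20.0% (14.1% to 27.5%) in the left arm and 17.8% (14.2% to 22.1%) in the centre. In replicate 2 the share of peaks in the highest-scoring 20% of that list was 12.6% in the right arm, 20.9% in the left arm and 19.2% in the centre. In replicate 1 it was 14.2%, 17.5% and 18.8%. Over all whole-series peaks it was 15.3%, 16.9% and 16.9%. The order of the median scores differed between the lists. In the reproducible set the median was 39.5 in the right arm, 54.7 in the left arm and 45.1 in the centre. In replicate 2 it was 158.1, 178.2 and 195.5. The right arm had the highest median in replicate 1, with 283.1 against 188.0 in the left arm and 226.1 in the centre. It was also highest in the whole-series list, with 12.41 against 10.73 and 10.53. The share of listed peaks that were reproducible differed little between the regions of V, with 33.0% in the right arm, 30.1% in the left arm and 31.6% in the centre.

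**Figure D2:**
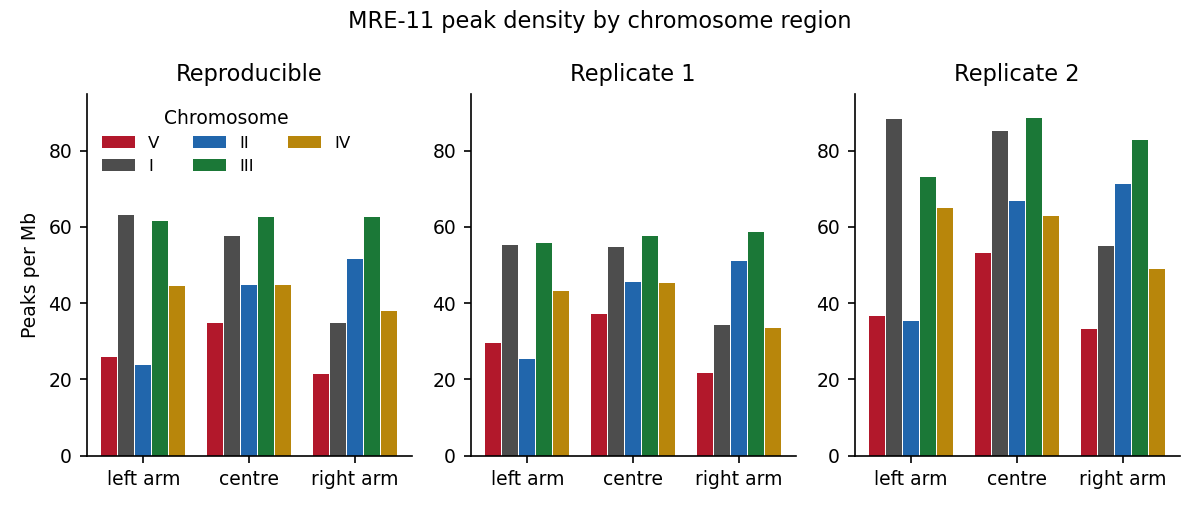
Peaks per Mb in the left arm, centre and right arm (outer 25% at each end) of chromosomes V, I, II, III and IV, for reproducible peaks and for each replicate list. With arms of this size, chromosome V is the lowest in the centre and right arm in each panel, and the left arm of II lies below that of V.

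In bins of about 1 Mb, V had 29.1 ± 9.62 reproducible peaks per bin (SD over 21 bins), between 16 and 52. The densest bin was V 5978335 to 6974724, with 52 reproducible, 54 replicate 1 and 59 replicate 2 peaks. The sparsest was V 16938616 to 17935004, with 16 reproducible, 15 replicate 1 and 25 replicate 2 peaks, and its neighbours on either side had 17 each. The left arm also had a low stretch. Its bin V 2989168 to 3985556 had 17 reproducible, 20 replicate 1 and 27 replicate 2 peaks, and the bin before it had 19 reproducible peaks. The last 2 bins of the right arm had 29 and 31, so the low stretch of the right arm did not reach the chromosome end. Peak counts of the replicates across the 21 bins were correlated, with Pearson's r at 0.79 and Spearman's rho at 0.84. Bins of 1 chromosome share its libraries and are not independent.

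The spacing of sites on V had short gaps within clusters and many long gaps between them. The median gap between neighbouring reproducible peaks was 12978 bp on V (quartiles 1117.5 and 46334 bp), against 7319 bp on I to IV (898.5 and 26080 bp). Short gaps were nearly as frequent as elsewhere: 189 of 611 gaps on V (30.9%) and 33.2% of those on I to IV were at most 2000 bp. They were 20.2% of the V gaps in replicate 1 and 26.6% in replicate 2, against 22.6% and 32.2% on I to IV. Joining peaks at most 2000 bp apart left 423 separate sites on V, of which 114 were clusters that together held 303 peaks (49.5%, against 54.3% on I to IV). A cluster can hold pieces of 1 replicate peak. On V, 188 of 655 replicate 1 peaks (28.7%) and 81 of 921 replicate 2 peaks (8.79%) overlapped more than 1 whole-series peak, up to 8 and 7. The cluster with the most members, V 11817579 to 11824354, had 9 reproducible peaks in 6776 bp. The densest 100 kb stretch, V 6213784 to 6313783, held 16 reproducible peaks, and the densest such stretches of I to IV held between 14 and 29.

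Long gaps took up more of V than of any other autosome. Gaps over 100 kb numbered 57 on V and made up 42.0% of its length, against 19.8% of I to IV, where the chromosomes ran from 11.7% on III to 25.4% on IV. In the replicate 1 list such gaps made up 30.0% of V and 13.6% of I to IV, and in the replicate 2 list 21.4% and 9.22%. With gaps split at the region boundaries, they took up 56.6% of the right arm of V, 47.1% of its left arm and 32.1% of its centre. The long gaps were not empty of listed peaks. Within them the whole-series list had 424 peaks that were not reproducible, or 48.2 per Mb, against 74.8 per Mb of such peaks on the rest of V. On I to IV the same densities were 50.9 and 87.6 per Mb.

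**Figure D3:**
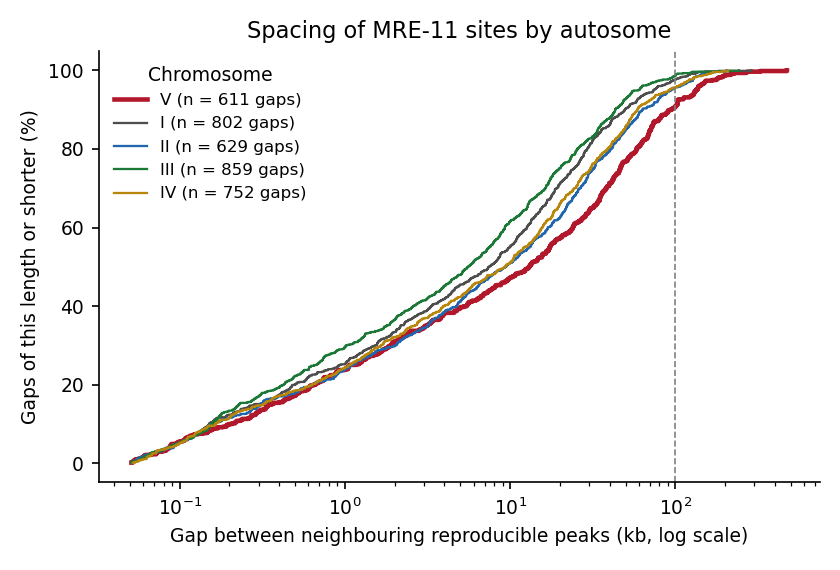
Cumulative share of gaps (%) against the length of the gap between neighbouring reproducible peaks (kb, log scale) for chromosomes V, I, II, III and IV; the dashed line is at 100 kb. The line of V runs with the others at short gaps and lies to their right at long ones, with 57 gaps past the dashed line.

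The longest gap of V, 2731047 to 3204369 in the left arm (473323 bp), was a gap of replicate 1 as well: that list had 0 peaks inside it and the replicate 2 list had 2. The whole-series list had 6 peaks inside, none with a score above 17.8. Its flanks were unlike, with a peak of 671 bp and a score of 15.8 on the left and a peak of 535 bp and a score of 143.7 on the right. The next longest was V 19195114 to 19521268 in the right arm (326155 bp), with 1 replicate 1 peak and 2 replicate 2 peaks inside. This stretch also held the longest gap of the replicate 2 list, V 19205807 to 19521217 (315411 bp). The third, V 3757467 to 4029632 (272166 bp), was richer in weak sites, with 20 whole-series, 4 replicate 1 and 5 replicate 2 peaks. The fourth, V 18614893 to 18882531 (267639 bp), held 6 whole-series, 1 replicate 1 and 3 replicate 2 peaks. The fifth, V 5285853 to 5513608 (227756 bp), had 9 whole-series, 0 replicate 1 and 3 replicate 2 peaks. Of these 5 gaps, 2 lay in the left arm, 2 in the right arm and 1 at the left edge of the centre.

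Peaks on V were about as wide as on the other autosomes. The median width of reproducible peaks was 597 bp on V (quartiles 421.75 and 969.25 bp) and 623.5 bp on I to IV, and the range on V was 148 to 9503 bp. Within V the median was 575 bp in the left arm, 629 bp in the centre and 573.5 bp in the right arm. The replicates differed far more than the chromosomes: at the 612 reproducible sites the overlapping peak of highest score was a median of 1.71 times as wide in replicate 1 as in replicate 2, and it was the wider one at 568 sites (92.8%). On I to IV the median ratio was 1.63. Across the 612 sites the Spearman rho between score and width in the whole-series list was 0.48, and between the scores of the replicates it was 0.52. Sites that overlap the same replicate peak each count it, so 1 replicate peak can enter these values at several sites. Sites also share their libraries, and tied scores limit the ranking at the top.

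The strongest sites of V were at the ceiling of the score. On V 26 of the 612 reproducible peaks (4.25%, Wilson interval 2.92% to 6.15%) had the maximum whole-series score of 163.35, against 4.15% over all nuclear chromosomes and 4.24% on I to IV. Of these 26, 7 lay in the left arm, 15 in the centre and 4 in the right arm, and their widths ran from 593 to 3966 bp. The 5 widest of them were V 4823605 to 4827570 (3966 bp), V 9601463 to 9604270 (2808 bp), V 15320587 to 15323043 (2457 bp), V 5008921 to 5010976 (2056 bp) and V 15511119 to 15513150 (2032 bp). Both replicate lists had a peak scored 3100 at each of the 5. That score is a tie: peaks with it share rank 25 in replicate 1 and rank 28 in replicate 2. The number of tied peaks is not given here. Taking the highest-scoring 20% of reproducible nuclear peaks (20.0% by construction), V had 106 of 612 (17.3%, 14.5% to 20.5%). Chromosomes I to IV together had 20.8% (19.4% to 22.3%), and singly ran from 16.6% on III, below V, to 24.8% on IV. The intervals overlapped.

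By the whole-series score none of the 10 widest sites of V had the maximum, while 4 of the 5 widest scored 3100 in replicate 1 and 4 of the 5 in replicate 2. The whole-series scores of the 10 ran from 20.2 to 146.9, and 6 of them lay above the V median of 45.6. The widest was V 7915532 to 7925034 (9503 bp, score 127.1), listed as 10134 bp by replicate 1 and as 9710 bp by replicate 2, and scored 3100 in each. It was followed by V 5838641 to 5846404 (7764 bp, score 102.1), which replicate 1 listed as 1 peak of 8314 bp and replicate 2 as 2 peaks, with a top score of 3100 in each list. The next was in the 5S rRNA and SL1 RNA array (6650 bp, score 38.4), with 693.3 in replicate 1 and 3100 in replicate 2. The fourth, V 3434561 to 3441165 (6605 bp), had a score of 28.6 in the whole-series list, although its peaks scored 3100 in replicate 1 and 2523 in replicate 2. The fifth, V 9338418 to 9344814 (6397 bp), had a score of 146.9, and 3100 in both replicates.

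**Figure D4:**
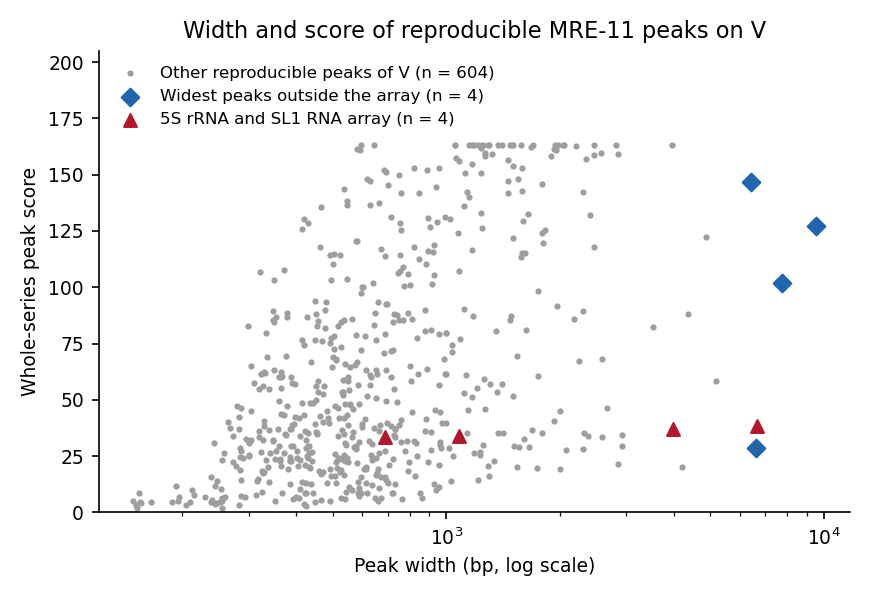
Whole-series score against width (bp, log scale) for the 612 reproducible peaks of V, with the 4 widest peaks outside the repeat array (diamonds) and the 4 peaks of the array (triangles). The array peaks share scores between 33.5 and 38.4 while their widths run from 687 to 6650 bp.

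At the 5S rRNA and SL1 RNA repeat array, both replicates had wide MRE-11 peaks. The array's place in WS220 was taken as known and was not checked against an annotation of that build. Within a fixed window of 25001 bp around it, peaks covered 49.6% in the whole-series list, 64.8% in replicate 1 and 55.99% in replicate 2. The whole-series list had 4 peaks there, all reproducible, between bases 17115419 and 17132113, with gaps of 1062 to 1684 bp between them. The narrow peaks on the left were V 17115419 to 17116105, of 687 bp with a score of 33.5, and V 17117790 to 17118867, of 1078 bp with a score of 34.02. The wide ones on the right were V 17119930 to 17126579, of 6650 bp with a score of 38.4, and V 17128140 to 17132113, of 3974 bp with a score of 36.9. The wide peaks stood at ranks 3 and 10 by width among the peaks of V. In score none of the 4 reached the median of the reproducible V peaks, 45.6, but all lay above the median of all listed V peaks, 10.73. Their ranks in the list of all 11473 nuclear peaks lay between 2646 and 2969, at percentiles 74.1 to 76.9.

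The replicates drew the array with the same outline and divided it differently. Replicate 1 had 3 peaks, and the rightmost, V 17119567 to 17132523, spanned 12957 bp, the widest peak of V in that list, and took in both wide whole-series peaks. Replicate 2 had 4 peaks, with V 17119785 to 17126824 (7040 bp) and V 17127781 to 17132307 (4527 bp) in place of it, separated by 956 bp. The wide peaks ranked differently in the lists: the 12957 bp peak of replicate 1 had a score of 693.3 and stood at rank 1235 of 4212. In replicate 2 the 7040 bp peak had 3100, with 27 peaks above it and other peaks tied with it at rank 28. The 4527 bp peak had 2037 at rank 587 of 5799. The 2 narrow peaks at the left end scored 389.3 and 681.2 in replicate 1 and 436.8 and 449.7 in replicate 2.

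**Figure D5:**
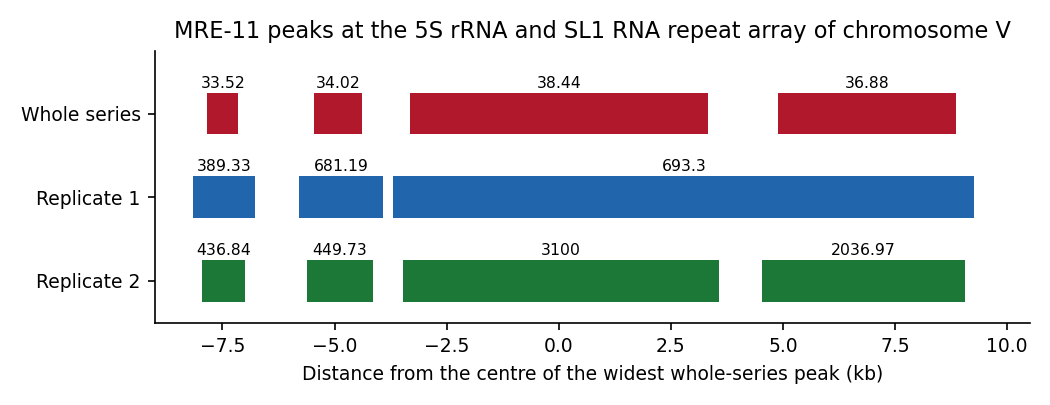
Peaks of the whole-series list and of each replicate at the 5S rRNA and SL1 RNA array, as bars against distance in kb from the centre of the widest whole-series peak, with each peak's score on its own list's scale above it. Both replicates have 2 narrow peaks on the left, and the stretch to their right is 1 peak of 12957 bp in replicate 1 and 2 peaks in replicate 2.

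The array lay in a sparse part of the chromosome. Its peaks were 4 of the 16 reproducible peaks (25%) in the sparsest bin of V. The nearest listed whole-series peaks were 92183 bp away on the left and 23431 bp on the right. On those sides the nearest replicate 1 peaks were 148775 and 175756 bp away, and the nearest replicate 2 peaks 149151 and 23089 bp. RefSeq annotation of another assembly, WBcel235, lists 14 genes for 5S rRNA (rrn-4 family) and 12 for SL1 RNA (sls-1 family) as neighbours on V, in which 23 of 25 neighbouring pairs are of unlike genes, with 1 other annotated gene among them. One more 5S gene, rrn-4.15, lies apart from them. These genes were not placed under the peaks, because the builds differ. The genes are near-identical copies, the handling of reads that align to several of them is not given in the sources used here, and input was not analysed, so occupancy by MRE-11 and the number of gene copies cannot be told apart.

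At the ends of V, both replicates had a peak at the first base on the left, and neither had the last peak on the right. The first reproducible peak, V 1 to 776 (score 27.5), began at base 1 in each replicate list too, and the next, V 7419 to 9095, scored 162.2 and was 2812 bp wide in replicate 1, against 1893 bp in replicate 2. The last reproducible peak was V 20846320 to 20846557 (238 bp, score 4.79). The last listed peak, V 20923727 to 20924172 (score 16.8), had no peak in either replicate.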

How the data were processed

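Per the labels' protocols, ground worms were fixed with EGS for 20 minutes and then with EGS and formaldehyde for 10 minutes, and 5 µg of antibody was used. The submitters' processing notes name BWA as a tool and ce10 as the build, and coordinates are WormBase WS220, per the file headers. Peaks were called with MACS for each replicate and with MACS v2 for the whole series, per the source column of the deposited files. Not given in the sources used here: the control, thresholds, pooling and aligner settings. Each peak has a score, deposited by the authors' caller on an unstated scale and used here as a rank within its list. The members, lists and alternatives were chosen with earlier results of these data known.

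The last base of any list's peaks was used as a chromosome's length. Peaks were placed in regions and bins by their centres. Gaps are stretches between neighbouring peaks. Wilson intervals are at 95%. Named peaks were the 5 of highest score (ties by width), the 5 widest, the flanks of the 5 longest gaps, those of the repeat array, the densest and sparsest bins and stretches, and the chromosome ends. The interval code was tested on simulated data and recovered the class of 2000 of 2000 simulated peaks. Alternatives were the peak set, each replicate alone, the higher-scoring 50%, an overlap of 50%, merging within 2000 bp and wider or narrower arms (10%). Python 3.11.15, numpy 2.4.6, pandas 2.3.3, scipy 1.17.1 and matplotlib 3.10.9 were used.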

Additional observations from a re-analysis of the deposited data

How the results depend on the processing

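V was the least dense autosome and had the longest gap of the 5 autosomes under every choice of peaks tried, and with arms of 25% it had the smallest arm share under each of them. The arm result depended on the size of the arms and, at sizes other than 25%, on the list. With every whole-series peak the density ratio of V to I to IV was 0.72, the median gap 3143 bp and the longest gap 159255 bp. With 1 replicate left out, the density ratio was 0.63 to 0.66, the longest gap 315411 to 472481 bp and the median width 638 to 1229 bp. Among the higher-scoring 50% of peaks, 61.6% of those on V were reproducible. The same share for I to IV is not given here, so this value does not compare V with other chromosomes. In the highest score quintile the shares on V and on I to IV were 94.4% and 94.5%. Merging peaks within 2000 bp gave a median gap of 32199 bp and joined the array's 4 peaks into 1. The wider arms tried held 63.1% of the reproducible V peaks, against 62.9% on I. In the replicate 2 list they held 60.4% on V and 63.0% on I, and in the whole-series list 61.4% on V and 62.1% on II. In the replicate 1 list they held 63.8% on V and 61.7% on II. Arms of 10% held 19.8% of the reproducible V peaks and 19.5% of those of replicate 1, close to their 20% of the length. They held 18.5% in the replicate 2 list and 18.3% in the whole-series list, at 0.91 and 0.90 times the density of the centre. The centre then takes in the inner part of the 25% arms. The cause of these differences was not tested. With arms of 10% the right arm had 1.02 times the reproducible peaks of the left, against 0.83 with arms of 25%. The replicates differed in direction with arms of 10%. Replicate 1 had 54 peaks in the right arm and 74 in the left, and replicate 2 had 92 and 78. Depth is unknown, so whether a site missing from a replicate lacked signal or reads was not tested. No paired analysis was possible because no values were analysed for the input libraries that carry the ChIP libraries' replicate numbers.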

Other observations

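Strong sites of V that a replicate lacked were few. Of the peaks found in replicate 2 only, 11 of 370 (2.97%) scored at or above the median of the reproducible V peaks. So did 8 of the 314 found in replicate 1 only (2.55%) and 0 of the 648 found in neither. The same counts for I to IV are not given here. Unshared peaks had low median scores there too, with 10.11 for replicate 1 only, 11.57 for replicate 2 only and 5.89 for neither. The 2 highest of the replicate 2 only peaks were V 5996081 to 5996538, of 458 bp with a score of 86.1, and V 10807886 to 10808273, of 388 bp with a score of 85.9. The 2 highest of the replicate 1 only peaks were V 13803748 to 13804219, of 472 bp with a score of 59.2, and V 13460465 to 13460827, of 363 bp with a score of 58.9. All of these 4 lay in the centre of V. The strongest peak found in neither replicate was V 17384132 to 17385277 in the right arm (1146 bp, score 28.1).

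The right arm held 11.5% of the V peaks found in replicate 1 only (36 of 314), 18.6% of those found in replicate 2 only (69 of 370) and 18.8% of those found in neither (122 of 648), against 17.4% of all listed V peaks (339 of 1944). Differences between these shares were not tested.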
